A study of Mus musculus with 2 samples.

Results

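The glutathione, peroxiredoxin, thioredoxin, superoxide dismutase and metallothionein genes were followed in PGK12.1, a female mouse embryonic stem cell line. One RNA sample came from embryoid bodies of that line after 15 days of differentiation, and the other from the undifferentiated line (day 0). Each was hybridised to 1 Affymetrix expression array. Both came from the same line, which the labels trace to blastocysts of a 129 mother and a (129 X PGK)F1 father, and no other treatment is given. By the study's design text, Xist RNA FISH showed both X chromosomes active in undifferentiated cells and a single active X at day 15. The undifferentiated cells had been kept with leukemia inhibitory factor on mouse fibroblast feeders, which were depleted on gelatin before RNA collection and before differentiation. The members were taken by gene symbol: the numbered Gst, Mgst, Gpx and Prdx genes, the Txn genes without the Txndc genes, and 15 named genes of glutathione synthesis, superoxide and peroxide removal, metal binding and the NRF2 pathway. This gave 57 of 18193 measured genes. Prdx1 and Gsta1 match the same rule, but their probe sets also name other genes, so they have no value, and further peroxiredoxins were not analysed here.

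Glutathione is a cysteine-containing tripeptide that cells use to reduce peroxides and to tag reactive compounds for removal. Glutathione peroxidases reduce peroxides with it, glutathione transferases attach it to electrophiles, and glutathione reductase restores the reduced form with NADPH. Peroxiredoxins remove peroxides with electrons from thioredoxin, superoxide dismutases turn superoxide into hydrogen peroxide, and metallothioneins are small cysteine-rich proteins that bind zinc and copper. Many of these genes are targets of the transcription factor NRF2 (Nfe2l2), which binds antioxidant response elements and is kept low by KEAP1.

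Each condition has a single array, so replicate error is unknown, nothing was tested, and every difference below describes this pair of arrays. Values are signals on a linear scale. A log2 difference is log2(signal + 16) at day 15 minus that in undifferentiated cells, and a gene counts as at least 2-fold higher or lower where that difference reaches 1 in size. The 15 bacterial control probe sets without target reached at most 35.6. A gene whose dimmer signal lay under 35.6 has a lower bound for its fold, with 35.6 in place of the dimmer signal, and one with both signals at or under it has none. Where a gene had several probe sets, the SD of log2 differences within a gene was 0.49 over 25 members and 0.58 over 5779 genes.

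Marker genes of several cell types were read on both arrays. Fibroblast and matrix markers had a summed signal of 31791 at day 15 and 359 in undifferentiated cells, with 7 of 8 at least 2-fold higher. Smooth muscle markers summed to 19578 and 769 in the same order, with 4 of 6 higher, and visceral endoderm and hepatic markers to 1712 and 158, with 3 of 8 higher. Of 8 pluripotency markers 6 were at least 2-fold lower, at a summed signal of 17318 at day 15 and 39481 in undifferentiated cells, so the day 15 sample still held pluripotency transcripts. Of 8 macrophage markers 3 were at least 2-fold higher (Csf1r, Tyrobp and C1qb) and 0 lower, with a median log2 difference of 1.02. Their summed signal was 1189 at day 15 and 1350 in undifferentiated cells, with Laptm5 the largest part (490 and 949). Laptm5 (-0.93) and Cd68, at 118 and 239 in the same order (-0.92), were just short of a call as lower. The 6 measured erythroid markers summed to 154 and 211, with the globin gene Hba-a1 at 4.80 and 4.20. In such bulk RNA, fewer cells of a type and less RNA per cell cannot be told apart. The part of these cell types in the differences below was not tested.

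At day 15, 4 of the 57 members exceeded their undifferentiated level at least 2-fold (7.02%), against 12.14% of all measured genes, and 10 were at least 2-fold lower (17.5%), against 6.60% of all measured genes. The 4 higher genes were Gpx8, Mgst1, Gpx7 and Gsto1. The 10 lower genes were Gpx2, Gsr, Gstp3, Txnip, Sod2, Gsta4, Gpx6, Gstm1, Gsta3 and Gstt2. Another 37 genes lay between, and 6 had both signals at or under the control bound (Gpx5, Gsta2, Gstm6, Gstt4, Gsto2 and Sod3). Of all 18193 measured genes, 5126 had no signal above the bound and could not be called. The shares over all measured genes, here and below, include them. The median log2 difference of the 51 genes above the bound was -0.26, against -0.0035 for all such genes on the arrays, and 32 of the 51 (62.7%) were below 0, against 50.1% of all such genes. A filter for bright genes, at the 75th percentile of all probe sets, kept 36 members and 6995 genes in all. Their medians lay closer together, at -0.22 and -0.12. Without probe sets whose suffix marks possible matches to related transcripts (a, s or x), Mgst1 had no signal above the bound and Gstm1 fell short of 2-fold at -0.87.

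**Figure D1:**
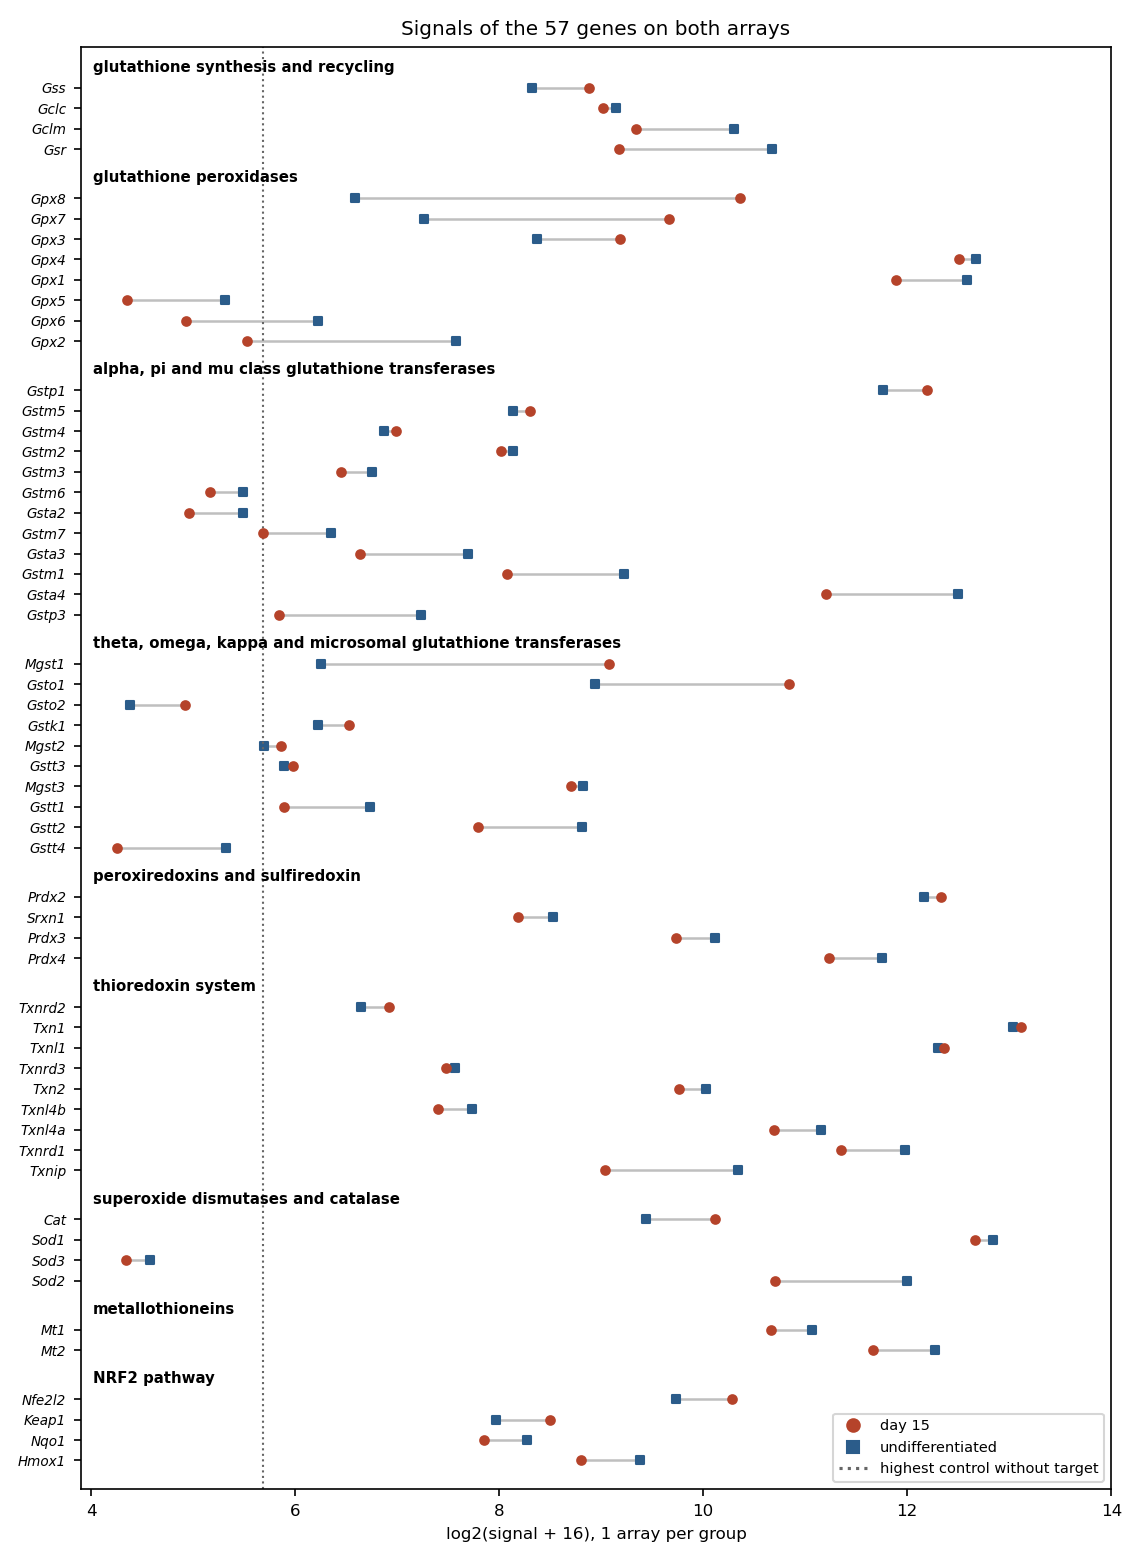
Each row is 1 of the 57 genes, grouped by role and ordered within a group by the log2 difference. Circles give log2(signal + 16) at day 15 and squares that in undifferentiated cells (1 array each), and the dotted line marks the highest control without target (signal 35.6). Gpx8, Mgst1, Gpx7 and Gsto1 have their day 15 circle far to the right of the square, while most other rows have it level with or left of the square.

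Among the 4 genes of glutathione synthesis and recycling, glutathione reductase was lower and the synthesis enzymes were within 2-fold. Gsr, the reductase, measured 562 at day 15 and 1621 in undifferentiated cells (2.89-fold lower, log2 difference -1.50). Its second probe set read 324 and 1168, a log2 difference of -1.80, so both probe sets passed 2-fold. Gclc, the catalytic subunit of glutamate-cysteine ligase, which makes the first bond of glutathione, read 503 at day 15 and 551 in undifferentiated cells (-0.13), and -0.56 with its other probe set. Gclm, the modifier subunit of that ligase, read 631 and 1242 in the same order (-0.96), just short of a call, and -0.65 with its other probe set. Gss, glutathione synthetase, measured 455 at day 15 and 304 before (0.56). The gap between the ligase subunits thus depended on the probe set, since the dimmer ones nearly coincided.

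The glutathione peroxidases held both the largest gain and the largest loss of all the members. Gpx8, an endoplasmic reticulum peroxidase with cysteine at its active site, measured 1301 at day 15 and 80.0 in undifferentiated cells (16.3-fold higher, log2 difference 3.78). Gpx7, its closest relative and likewise an enzyme of the endoplasmic reticulum with cysteine in place of selenocysteine, measured 796 at day 15 and 138 in undifferentiated cells (5.76-fold higher, 2.40). Each has 1 probe set. In contrast Gpx2, the selenocysteine enzyme best known from the gut epithelium, read 30.3 at day 15 and 175 in undifferentiated cells, at least 4.92-fold lower (-2.05). Gpx6, an odorant-metabolising peroxidase of the olfactory epithelium, read 14.5 at day 15 and 58.6 in undifferentiated cells. Its log2 difference of -1.29 makes it a 2-fold call, but against the control bound its loss is at least 1.65-fold.

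The widely expressed peroxidases were within 2-fold. Gpx1, the main cytosolic peroxidase, measured 3785 at day 15 and 6133 in undifferentiated cells (-0.69). Gpx4, which reduces lipid peroxides in membranes and protects cells from ferroptosis, measured 5787 and 6538 in the same order (-0.18), and its other probe set gave -0.17. Gpx3, the secreted plasma form, measured 565 at day 15 and 315 in undifferentiated cells (0.81). Gpx5, the epididymal form, stayed under the bound at 4.50 and 23.9. The 7 selenoproteins among the members (Gpx1 to Gpx4 and the thioredoxin reductases) had 1 gene at least 2-fold lower, Gpx2, and 0 higher, with a median of -0.18.

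Of the 22 glutathione transferases, 5 were at least 2-fold lower (22.7%, against 6.60% of all measured genes). Another 2 were higher (9.09%, against 12.14%), 11 lay between and 4 had no fold. In the alpha and pi classes 3 of 5 were lower. Gsta4, which conjugates 4-hydroxynonenal from lipid peroxidation, measured 2350 at day 15 and 5773 in undifferentiated cells (2.46-fold lower, -1.29, 1 probe set). Gsta3 measured 83.4 and 191 in the same order (2.29-fold lower, -1.06), and its dimmer probe set gave -0.74. Gstp3, a pi-class gene, read 41.5 at day 15 and 134 in undifferentiated cells (3.23-fold lower, -1.39). Gstp1, the abundant pi-class enzyme and a close neighbour of Gstp3 on chromosome 19 (1 gene lies between them in RefSeq), measured 4658 at day 15 and 3454 in undifferentiated cells (0.43). The 2 pi-class genes thus lay on opposite sides of 0, although scaling the arrays on the hybridization controls leaves Gstp1 at only 0.04.

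The 7 mu-class genes lie on chromosome 3, and 1 of them passed 2-fold. Gstm1 measured 254 at day 15 and 581 in undifferentiated cells (2.29-fold lower, -1.14). Its other probe sets gave -0.87, -0.53 and -0.02, and the mean over all 4 was -0.64, so the call rests on the brightest one. Mu-class genes resemble each other in sequence, and the probe set that stands for Gstm1 has the suffix x. Gstm7 read 35.4 at day 15 and 65.5 in undifferentiated cells (-0.67), though its second probe set gave 0.12. Gstm2 (243 at day 15, 265 in undifferentiated cells), Gstm3 (71.5, 91.6), Gstm4 (111, 101) and Gstm5 (300, 265) differed by at most 0.30 in size on the log2 scale. Gstm6 (19.8 at day 15, 29.0 in undifferentiated cells) and the alpha-class gene Gsta2 (15.1, 28.9) stayed under the bound.

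The other transferase classes held the 2 gains. Mgst1, a membrane enzyme of the endoplasmic reticulum and outer mitochondrial membrane that also reduces lipid peroxides, measured 523 at day 15 and 60.5 in undifferentiated cells (8.64-fold higher, 2.82). Its other probe set lay under the bound on both arrays (3.30 at day 15, 0.70 in undifferentiated cells), so 1 probe set carries this gain. Gsto1, an omega-class enzyme that reduces dehydroascorbate and methylated arsenic, measured 1813 at day 15 and 474 in undifferentiated cells (3.82-fold higher, 1.90), and its second probe set, at 1184 and 427, also passed 2-fold (1.44). Gsto2, the next gene along chromosome 19, stayed under the bound at 14.4 and 4.90.

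Theta-class genes went the other way or stayed level. Gstt2 measured 206 at day 15 and 434 in undifferentiated cells (2.11-fold lower, -1.02). Gstt1 read 43.2 and 90.2 in the same order, a 2.09-fold ratio of signals that the pseudocount brings to -0.84, short of a call. Gstt3, directly beside Gstt1 on chromosome 10, read 47.0 at day 15 and 43.5 in undifferentiated cells (0.08). The kappa-class gene Gstk1 (76.4, 58.9), Mgst2 (42.2, 36.0) and Mgst3 (400, 436) differed by at most 0.30 in size on the log2 scale. Gstt4 read 3.10 at day 15 and lay under the bound in undifferentiated cells too.

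No measured peroxiredoxin reached 2-fold. Prdx2, the cytosolic form abundant in red cells, measured 5149 at day 15 and 4585 in undifferentiated cells (0.17). Prdx3, the mitochondrial form, measured 837 and 1097 in the same order (-0.38). Prdx4, the endoplasmic reticulum form, is X-linked and measured 2398 at day 15 and 3430 in undifferentiated cells (-0.51), but another bright probe set read 2068 and 1686 (0.29), so its direction depended on the probe set. Srxn1, sulfiredoxin, which repairs over-oxidised peroxiredoxins, measured 274 at day 15 and 353 in undifferentiated cells (-0.35). The 3 members grouped under the endoplasmic reticulum alone (Gpx7, Gpx8 and Prdx4, grouped after their values were seen) thus differed among themselves. Their log2 differences lay between -0.51 and 3.78. Mgst1, which is also of the outer mitochondrial membrane, was not in this group.

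In the thioredoxin system the inhibitor changed more than the enzymes on the probe sets that stand for the genes. Txnip, an arrestin-family protein that binds thioredoxin and limits glucose uptake, measured 508 at day 15 and 1278 in undifferentiated cells (2.52-fold lower, -1.30), and its second probe set gave -1.61. Txn1, cytosolic thioredoxin, measured 8847 at day 15 and 8396 in undifferentiated cells (0.08), and -0.80 with a dimmer probe set. Txnrd1, the selenoenzyme that reduces Txn1, measured 2602 and 4025 in the same order (-0.63). A dim probe set of Txnrd1 read 18.0 and 69.7 (-1.33), a difference as large as that of Txnip. The mitochondrial pair read 854 at day 15 and 1029 before for Txn2 (-0.26), and 105 and 84.2 for Txnrd2 (0.28). Other probe sets of Txnrd2 gave 0.34, 0.34 and -0.93. Txnrd3, the testis-enriched reductase, read 163 at day 15 and 173 in undifferentiated cells (-0.08), and its other probe sets gave -0.61 and 0.31.

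The remaining genes with a Txn symbol were also within 2-fold. Txnl1, a thioredoxin-like protein that associates with the proteasome, measured 5232 at day 15 and 5026 in undifferentiated cells (0.06). Txnl4a, a spliceosome component, measured 1646 and 2264 in the same order (-0.46), and Txnl4b 153 and 197 (-0.33). Other probe sets of Txnl1 gave -0.17 and -0.44, and a dim one, at 65.7 on day 15 and under the bound in undifferentiated cells, gave 1.96.

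Mitochondrial superoxide dismutase was at least 2-fold lower, while the cytosolic enzyme stayed within 2-fold on its bright probe sets. Sod2, the manganese enzyme of the mitochondrial matrix, measured 1648 at day 15 and 4079 in undifferentiated cells (2.48-fold lower, -1.30). Its other 3 probe sets gave -1.61, -1.35 and -0.96, all below 0. Sod1, the copper and zinc enzyme of the cytosol, measured 6478 at day 15 and 7325 in undifferentiated cells (-0.18). Another bright probe set of Sod1 gave -0.44, and a dim one, at 176 and 90.4, gave 0.85. Cat, catalase of the peroxisome, measured 1094 at day 15 and 680 in undifferentiated cells (0.67), with 0.52 from its second probe set. The secreted enzyme Sod3 stayed under the bound at 4.30 and 7.90. The other members grouped under the mitochondrion alone, Prdx3, Txn2 and Txnrd2, were all within 2-fold. Mgst1, found in the outer mitochondrial membrane and the endoplasmic reticulum, was higher (2.82).

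**Figure D2:**
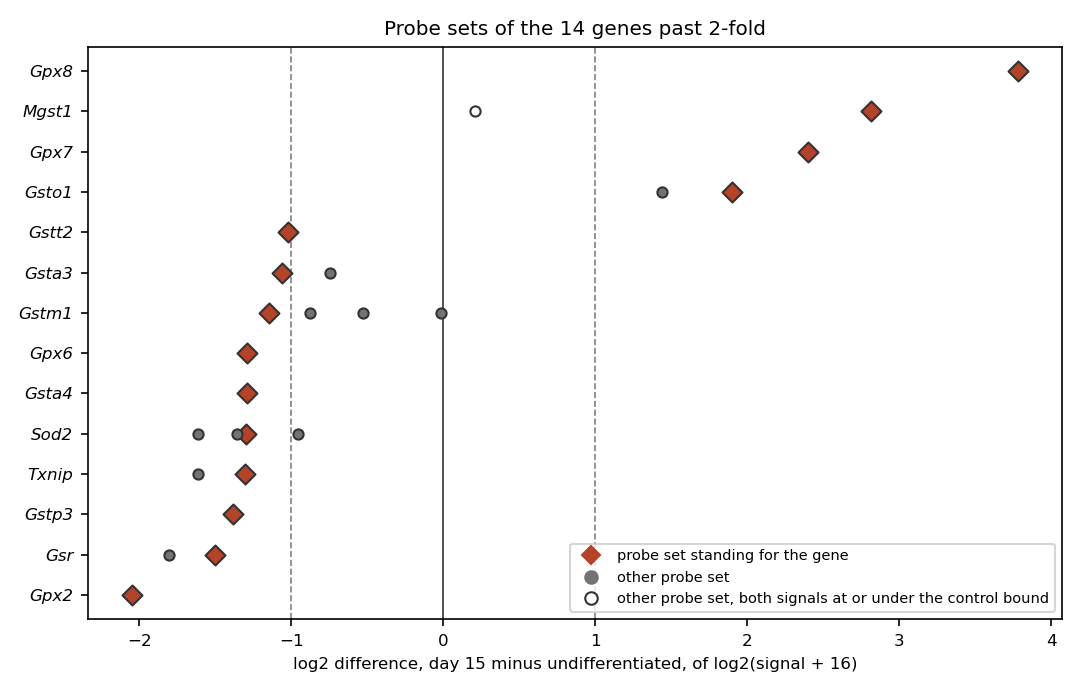
Each point is 1 probe set of the 14 genes past 2-fold, placed by its log2 difference (day 15 minus undifferentiated). Diamonds mark the probe set that stands for the gene, grey circles its other probe sets, the open circle a probe set with both signals at or under the control bound, and dashed lines a 2-fold change. All probe sets of Gsr, Txnip and Gsto1 lie past 2-fold, and those of Gstm1 spread between -1.14 and -0.02.

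The metallothioneins measured lower signals at day 15 without reaching 2-fold. Mt1 measured 1607 at day 15 and 2123 in undifferentiated cells (-0.40), on a probe set of suffix s, and its dim second probe set read 11.4 and 50.3 (-1.27). Mt2 measured 3230 at day 15 and 4928 in undifferentiated cells (-0.61). Both genes are adjacent on chromosome 8, with 0 genes between them, and are induced by zinc through metal response elements in their promoters. Their RefSeq promoters (GRCm38.p6, 250 bases before to 50 after the annotated start, 300 in all, 5′ to 3′) are shown because the 2 neighbours lay on the same side of 0. Capitals mark matches to the core of the metal response element, TGCACNC or TGCGCNC, on either strand.
Mt2 (chr8:94172368-94172667, plus strand): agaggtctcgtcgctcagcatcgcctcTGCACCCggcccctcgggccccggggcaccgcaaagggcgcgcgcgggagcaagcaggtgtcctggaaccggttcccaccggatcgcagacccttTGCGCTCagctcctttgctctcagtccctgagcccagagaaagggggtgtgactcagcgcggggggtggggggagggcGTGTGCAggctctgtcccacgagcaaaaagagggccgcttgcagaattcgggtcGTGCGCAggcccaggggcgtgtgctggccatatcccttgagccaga
Mt1 (chr8:94178839-94179138, plus strand): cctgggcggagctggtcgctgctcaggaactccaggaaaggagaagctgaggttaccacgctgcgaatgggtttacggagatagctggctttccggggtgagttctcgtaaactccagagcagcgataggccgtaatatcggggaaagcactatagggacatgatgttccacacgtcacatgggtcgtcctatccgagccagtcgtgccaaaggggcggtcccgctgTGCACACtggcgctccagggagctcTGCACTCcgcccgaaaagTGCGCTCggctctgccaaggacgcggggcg
The Mt2 window holds 4 matches and the Mt1 window 3, none of which overlap. At least 3 matches were present in 1.97% of all 32851 promoters in the table. Among the 62 promoters of the 49 members there, 3 (4.84%) had that many, those of Mt1, Mt2 and Gclm. At least 1 match was present in 30.6% of the member promoters and 25.7% of all promoters.

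The NRF2 pathway genes did not share 1 direction. Nfe2l2, which encodes NRF2, measured 1230 at day 15 and 837 in undifferentiated cells (0.55), and Keap1, its cytosolic inhibitor, measured 346 and 235 in the same order (0.53). Hmox1, heme oxygenase, measured 431 at day 15 and 650 in undifferentiated cells (-0.58), and Nqo1, a quinone reductase, 216 and 293 (-0.42). None of the 4 reached 2-fold. Gclm, Gsr, Srxn1 and Txnrd1, commonly used as NRF2 target genes, had differences below 0 as given above, and Gsr alone of them passed 2-fold.

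The core of the antioxidant response element, TGACNNNGC, was present on either strand in the promoters of 10 of the 49 members with one, or 16.1% of their 62 promoters, against 12.4% of all promoters. Windows of 6 such members are shown to set a gene that was higher (Mgst1) beside one that was lower (Gsta3), then Gclm, Txnrd1, Mt2 and Nfe2l2, which lay within 2-fold. Each window has 10 bases on either side, reads 5′ to 3′ on the strand of the match (RefSeq, GRCm38.p6), and has the core in capitals.
Mgst1 (chr6:138140461-138140489, minus strand): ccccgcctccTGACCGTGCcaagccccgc
Gsta3 (chr1:21240454-21240482, plus strand): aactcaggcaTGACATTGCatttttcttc
Gclm (chr3:122245413-122245441, minus strand): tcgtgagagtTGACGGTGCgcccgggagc
Txnrd1 (chr10:82859104-82859132, minus strand): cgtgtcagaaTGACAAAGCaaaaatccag
Mt2 (chr8:94172529-94172557, plus strand): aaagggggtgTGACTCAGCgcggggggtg
Nfe2l2 (chr2:75704885-75704913, minus strand): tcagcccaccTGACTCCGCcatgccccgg
The match in Gclm overlaps one to the metal response element core, and the others do not. Of the 10 members with the core, Mgst1 alone was at least 2-fold higher and Gsta3 alone at least 2-fold lower. Mgst1 and Txnrd1 also have annotated promoters without a match. Whether the core goes with a direction was not tested. A match says only that the letters are present in the window.

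The companion lists, of genes around the same chemistry, were read on the same scale, with 12.14% higher and 6.60% lower over all measured genes beside them. Among 23 other NRF2 partners and targets, 6 were at least 2-fold higher and 0 lower, with a median of 0.46. Over the 9 alternative settings tried the counts were 3 to 7 higher and 0 or 1 lower. Ephx1, microsomal epoxide hydrolase, measured 1239 at day 15 and 208 in undifferentiated cells (5.97-fold higher). Osgin1, an oxidative stress-induced growth inhibitor, read 111 and 13.2 in the same order (at least 3.12-fold higher). Bach1, a repressor that competes for antioxidant response elements, measured 1431 at day 15 and 319 in undifferentiated cells (4.49-fold higher), although its second probe set was under the bound and gave -0.85. Its relative Bach2 read 103 and 29.2 (at least 2.90-fold higher), with another probe set at -0.42.

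Genes that supply glutathione and NADPH moved in both directions. Of 15 measured genes of cysteine and glutathione supply and turnover, 4 were higher and 3 lower (median -0.08). This balance turned to 2 higher and 4 lower with quantile normalization and with scaling on the hybridization controls, and to 1 and 1 with a pseudocount of 64. Chac1, which degrades glutathione, measured 686 at day 15 and 220 in undifferentiated cells (3.12-fold higher), and Dpep1, a dipeptidase, read 47.5 and 4.30 (at least 1.33-fold higher). The leucine aminopeptidase gene Lap3 measured 1703 at day 15 and 3940 in undifferentiated cells (2.31-fold lower), and the oxoprolinase gene Oplah 12.4 and 62.5 (at least 1.76-fold lower). Of 9 NADPH supply genes 2 were higher and 0 lower (median 0.21), with 1 lower under scaling on the hybridization controls. Nnt, the mitochondrial transhydrogenase, measured 1334 at day 15 and 330 in undifferentiated cells (4.04-fold higher), and malic enzyme Me1 1678 and 549 (3.06-fold higher). Mthfd1 (1752 at day 15, 3325 in undifferentiated cells) and Idh1 (2015, 1239) lay within 2-fold.

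Of 17 glutaredoxin, glyoxalase and glutathione-linked genes, 1 was higher and 2 lower (median -0.39). The lower count was 0 with the mean over probe sets and 4 with scaling on the hybridization controls. Abcc1, an exporter of glutathione conjugates, measured 772 at day 15 and 286 in undifferentiated cells (2.70-fold higher). Its relative Abcc5 measured 647 and 1636 in the same order (2.53-fold lower), but its brightest probe set without an a, s or x suffix gave 0.62. Glutaredoxin (Glrx) measured 243 at day 15 and 521 in undifferentiated cells (2.14-fold lower, -0.72 with its second probe set), and Abcc4 534 and 1016 (-0.91).

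Of 19 measured metal handling genes 3 were higher and 0 lower (median -0.33). Under hybridization-control scaling 5 were lower, under quantile normalization 3 and at a pseudocount of 1 there were 4, while the higher count stayed at 3 in each of these. The zinc importers Slc39a6 (2167 at day 15, 476 in undifferentiated cells, 4.56-fold higher) and Slc39a8 (117, 18.1, at least 3.30-fold higher) and the copper pump Atp7a (1079, 398, 2.71-fold higher) made up the 3. The other probe sets of Slc39a6 gave 0.90, 0.46 and 0.70, and the mean over all of them was 1.05. Other zinc transporters above the bound lay on both sides of 0. The importer Slc39a14, at 452 on day 15 and 913 in undifferentiated cells (-0.99), the exporter Slc30a1 (-0.81) and Slc39a10 (-0.25) were below it. Slc39a1 (0.68) and Slc39a7 (0.71) were above it.

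A list of selenoprotein synthesis factors and selenoproteins outside the members had 19 measured genes, of which 4 were higher and 1 lower (median 0.11). Over the alternative settings the counts were 2 to 5 higher and 1 to 3 lower. Selenon, of the endoplasmic reticulum, measured 522 at day 15 and 45.1 in undifferentiated cells (11.6-fold higher), Selenom, also of the endoplasmic reticulum, 657 and 173 (3.81-fold higher), and Selenop, the secreted selenium carrier, 410 and 123 (3.33-fold higher). The nucleolar protein gene Selenoh measured 1046 at day 15 and 3832 in undifferentiated cells (3.66-fold lower). Among 11 genes of methionine sulfoxide reduction and of oxidant production, 3 were higher and 1 lower (median 0.26), and over the alternative settings 1 to 4 higher and 0 or 1 lower. Msrb3, a methionine sulfoxide reductase of the endoplasmic reticulum and mitochondria, read 494 at day 15 and 1.90 in undifferentiated cells (at least 13.9-fold higher), and 1.24 with its second probe set. Cyba, a subunit of NADPH oxidases, measured 727 and 203 in the same order (3.59-fold higher), Nox4 63.4 and 20.9 (at least 1.78-fold higher), and Msrb2 95.1 and 233 (2.45-fold lower).

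**Figure D3:**
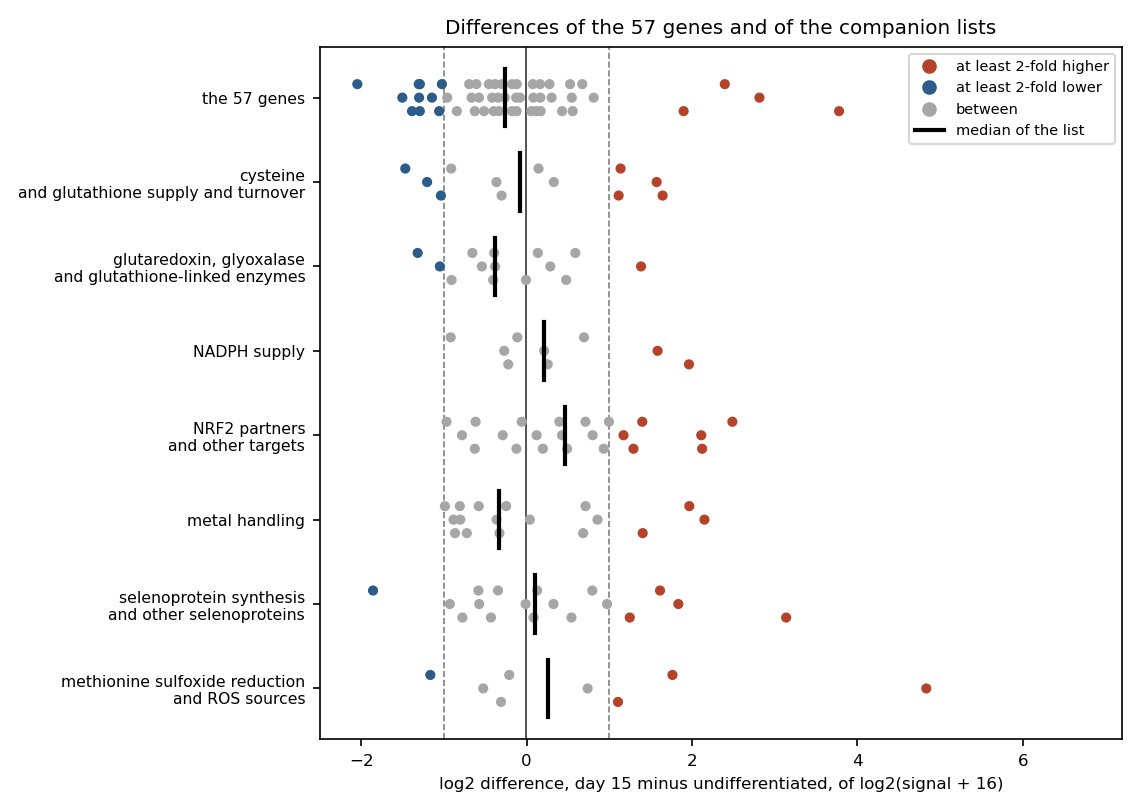
Each point is a gene with a signal above the control bound, placed by its log2 difference (day 15 minus undifferentiated). The top row holds the members and the others the companion lists, with black bars for list medians and dashed lines for a 2-fold change. The members have a median of -0.26 and 10 points left of the lower dashed line, while NRF2 partners and other targets have a median of 0.46 and none there.

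The scaling of the arrays moved all differences. Under quantile normalization the median shift over genes was -0.15 (log2), and under scaling on the 18 bacterial hybridization controls it was -0.37. The members' counts were 4 higher and 11 lower with quantile normalization, against 10.3% higher and 8.87% lower of all genes. With the hybridization controls they were 4 and 14, against 8.16% and 13.8%. The 14 genes past 2-fold passed it under all 3 scalings. Gstt1 passed with both alternatives, and Gclm, Gpx1 and Txnrd1 with the hybridization controls. Of members with a positive difference, 4 turned negative with quantile normalization (Gstm4, Gstm5, Gstt3 and Txnrd2). With the hybridization controls 9 did, those 4 and Gstk1, Mgst2, Prdx2, Txn1 and Txnl1.

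**Figure D4:**
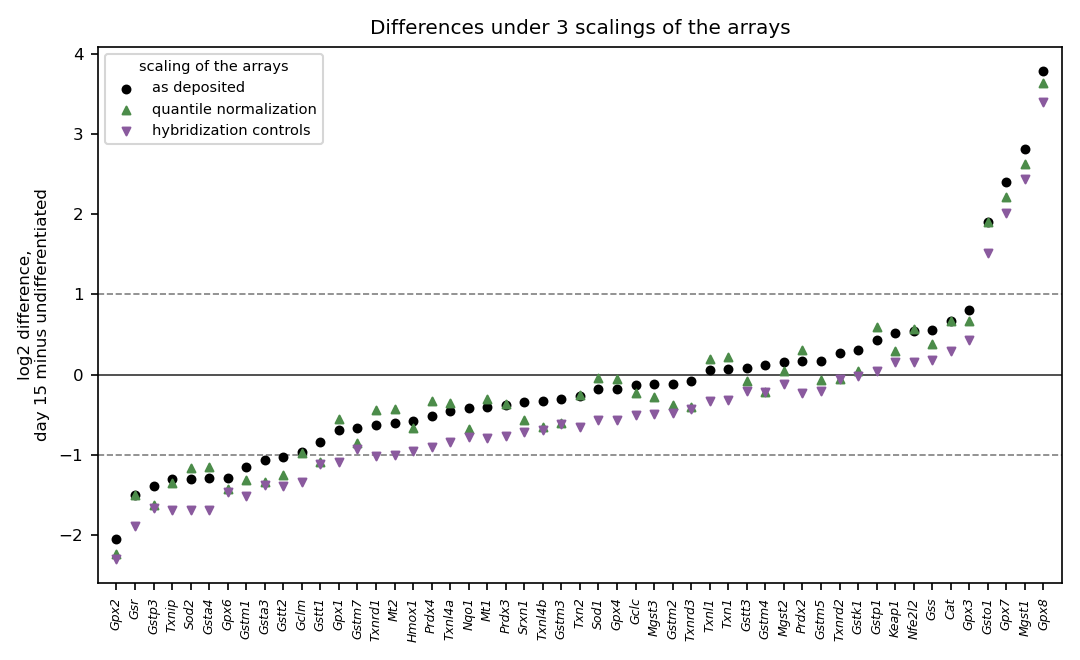
The 51 members above the control bound are ordered along the horizontal axis by their log2 difference as deposited. The vertical axis gives that difference (circles), with quantile normalization (upward triangles) and scaled on the hybridization controls (downward triangles), and dashed lines mark 2-fold. The 4 highest genes stay above 1 and the 10 lowest below -1 under each scaling.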

How the data were processed

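Expression was measured on 2 Affymetrix arrays, 1 per condition, from biotinylated cRNA per the labels' protocols. The authors deposited a linear signal intensity per probe set (45101 in all). Which software summarised them is not given in the sources used here. A 2% trimmed mean of 250.0 on each array shows that these deposited intensity values had been scaled.

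The 64 control probe sets were set aside. Of the rest, 34945 named 1 gene, 932 several and 9160 none in the platform annotation. Symbols were updated through the RefSeq table of GRCm38.p6, with 34741 probe sets matched on gene ID, 143 on symbol and 61 unmatched. A gene was represented by its probe set of highest mean log2(signal + 16). No expression filter was applied, and 50 members passed the filter at the median of all probe sets (signal 36.5). A 2-fold call also required the brighter signal to exceed 35.6. Without replicates no test was possible and the number of arrays limits the precision. The members and companion lists were chosen with earlier results of these data known. All 57 members could be named, along with up to 4 genes of each companion list with the largest difference. The calling step was run on simulated arrays with planted changes well past 2-fold, in bright genes only. That run cannot speak to calls near 2-fold or on dim genes. Python 3.11.15, numpy 2.4.6 and pandas 2.3.3 were used.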

Additional observations from a re-analysis of the deposited data

How the results depend on the processing

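The alternatives were filters at the median and at the 75th percentile of all probe sets, averaging a gene's probe sets, dropping those with an a, s or x suffix, 2 other scalings, pseudocounts of 1 and 64, and the symbols of the platform annotation. The 14 genes past 2-fold kept their direction in all 119 values these 9 alternatives gave. Gpx7, Gpx8, Gsr, Gsta4, Gsto1, Sod2 and Txnip passed 2-fold in every alternative. Many of these values could not differ from the main one. The filters only drop genes, and averaging or dropping probe sets cannot shift a gene with 1 probe set, such as Gpx7, Gpx8 or Gsta4. The 75th percentile filter drops Mgst1, which was higher, and Gpx2, Gpx6, Gsta3 and Gstp3, which were lower, from the genes used. It left 6 of 36 members at least 2-fold lower, against 9.79% of the 6995 genes it kept. In the other direction it left 3 of 36 at least 2-fold higher, against 13.0%. A pseudocount of 64 damps dim genes (Gpx6, Gsta3, Gstp3 and Gstt2). It left 6 of 57 members lower, against 3.74% of all 18193 genes. The members' median was -0.61 with scaling on the hybridization controls, beside -0.38 for all genes. Abcc5 turned to 0.62 once a, s and x suffixes were dropped. The mean over probe sets took Gsta3 to -0.90, Gstm1 to -0.64 and Bach1 to 0.63. Other counts of the members stayed within 1.5 times of the value given. Their other medians lay within a 95% interval of the main median, taken over the members as if they were independent (-0.46 to 0.06). That interval spans 0 and gives no measure of replicate error, since each condition has 1 array. Of the values for single genes and companion lists, 749 stayed near the value given and 49 moved further than the spread between probe sets or, for counts, by over 1.5 times. No paired analysis was possible because each condition has 1 array. Signals at or under the controls without target limit what can be said of Gpx5, Gsta2, Gstm6, Gstt4, Gsto2 and Sod3.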
